A study of Mus musculus with 4 samples.

Results

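The proteasome genes of the mouse array were taken as every gene whose name begins with Psm, a letter from a to g and a digit. This rule found 49 of the 26265 named genes, carried by 61 probes, and 11 of them had more than 1 probe. They encode the subunits of the 20S core and of the 19S regulatory particle, the inducible subunits that replace core subunits, the alternative activators and inhibitor of the core, and the chaperones that assemble both particles. Psmc3ip matches the rule by name only: it encodes a partner protein of Psmc3 that works in meiotic recombination and is no part of the proteasome. RNA was measured in isolated pancreatic islets of 8-week-old C57BL/6 mice kept for 24 h in RPMI1640 medium with 5.6 mM glucose. One group received 30 µM GKA, an activator of glucokinase, the enzyme that sets the rate of glucose use in beta cells, and the other received the vehicle, DMSO. Each group held 2 samples, each hybridised to its own 1-colour Agilent array. Nothing in the labels tells whether the 2 samples of a group were separate mice, pools or cultures, so the p-values below reflect the spread of these samples alone, a spread that could be technical.

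The proteasome degrades proteins that carry chains of ubiquitin. Its 20S core is a barrel of alpha rings around beta rings, and the cutting sites lie in the beta subunits Psmb5, Psmb6 and Psmb7. The 19S particle caps the barrel, binds the ubiquitin chain, and unfolds the substrate with a ring of ATPases. Under interferon, and in many leukocytes at rest, newly made cores take up Psmb8, Psmb9 and Psmb10 in place of the Psmb5, Psmb6 and Psmb7 subunits, and this immunoproteasome yields peptides suited to presentation on MHC class I molecules. In beta cells the proteasome also removes misfolded proinsulin.

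Array signals are given on the log2 scale relative to the 75th percentile of processed intensity on the same array, so that 0 is the level of that percentile. The percentile stood at intensities of 557 and 598 on the GKA arrays, against 751 and 755 on the vehicle arrays. Between 23520 and 25056 probes per array were well above background, or 59.7% to 63.5% of the non-control probes, and no spot was saturated (0 on each array). All 4 arrays lay on 1 slide, the GKA samples at its later positions and the vehicle samples at its first, so the group and the place on the slide cannot be told apart. The endocrine nature of the samples was plain from their markers: all 9 of the listed hormone and beta-cell genes were well above background, and their signals relative to the percentile summed to 3063 and 3204 on the GKA arrays, against 2550 and 2583 on the vehicle arrays. A gene was tested when either group had its probe well above background on both of its arrays. This held for 47 of the 49 proteasome genes, and the exceptions were Psma8, a testis alpha subunit, and Psmb11, the thymus-specific beta subunit, whose probes were not well above background on any array.

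Proteasome genes moved little with GKA as a whole, but not all in one direction. The inducible core subunits Psmb9 and Psmb10 and the activator subunit Psme1 fell, while the 19S subunits Psmd1 and Psmd12 rose. These 5 genes were 10.6% of the 47 tested, against a background of 17.1% of all 17178 genes (limma, adjusted p under 0.05), so called members were no more frequent than called genes in general. By direction, 2 members were higher, against 9.11% of all genes, and 3 were lower, against 8.01%. The median log2 change of the 47 genes was 0.19, beside -0.01 for all genes tested. Without scaling the member median was -0.19, beside -0.40 for all genes. There 0 members were higher, against 4.37% of all genes, and 17 were lower, against 44.6%. With spike-in scaling the member median was -0.29, beside -0.49 for all genes. There 0 members were higher and 9 lower, against 421 and 5157 of all 17178 genes. With the 75th percentile, both GKA arrays lay above both vehicle arrays for 27 members, or 57.4%, against 32.4% of all genes, and below them for 8 members, or 17.0%, against 33.5% of all genes. The remaining 12 members overlapped between the groups. At an unadjusted p under 0.05 there were 19 members, beside 36.1% of all genes. When dim probes were tested as well, the adjusted p of the 5 genes ran from 0.0832 to 0.139 and they no longer passed.

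**Figure D1:**
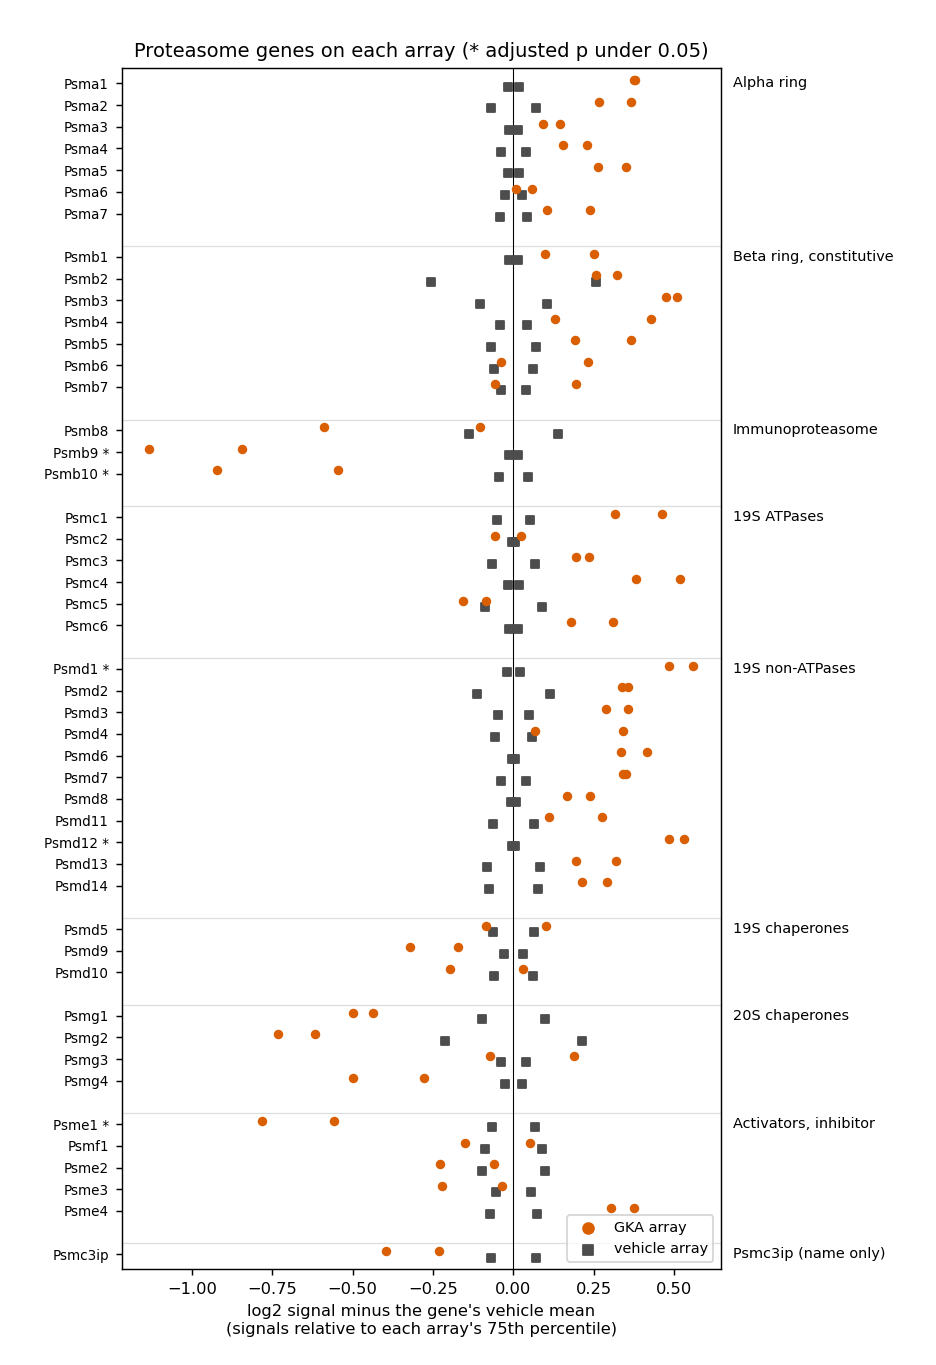
Each row is 1 of the 47 tested proteasome genes, grouped by class, and each point is 1 array (orange circles, the 2 GKA arrays; grey squares, the 2 vehicle arrays), plotted as log2 signal minus the gene's vehicle mean; an asterisk marks an adjusted p under 0.05. Psmb9, Psmb10 and Psme1 lie to the left of their vehicle points. With this scaling 26 of the 31 constitutive subunits have both GKA points to the right, against 32.4% of all genes. The median change of these 31 subunits nevertheless turned to -0.13 without scaling and to -0.22 with spike-in scaling.

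The immunoproteasome was the class with the lowest median change, -0.73, and 2 of its 3 genes passed as lower, against 8.01% of all genes. Psmb9, the inducible subunit that takes the place of Psmb6, had log2 signals of 1.83 and 1.54 on the GKA arrays, against 2.66 and 2.69 on the vehicle arrays. Both GKA arrays were below both vehicle arrays by more than the spread within either pair. Its log2 change was -0.99 ± 0.14 (SE), a signal of 0.504 times the vehicle level (95% interval of the log2 change -1.34 to -0.63, adjusted p = 0.0153 in limma). The probe lies at chr17:34319174-34319233 of build mm9 on the minus strand. Psmb10, which takes the place of Psmb7, stood at 4.56 and 4.18 with GKA and at 5.06 and 5.15 with vehicle. The groups did not overlap, though the GKA arrays were further apart than the vehicle arrays. Psmb10 fell to 0.602 times the vehicle signal, a log2 change of -0.73 ± 0.16 (SE, adjusted p = 0.0392), and its probe is at chr8:108459677-108459736 of mm9 on the minus strand. For Psmb8, the counterpart of Psmb5, the signals were 2.51 and 2.03 with GKA and 2.48 and 2.75 with vehicle. The first GKA array lay between the vehicle arrays, so the groups overlapped and the log2 change of -0.35 ± 0.20 did not pass (adjusted p = 0.280, interval -0.86 to 0.17). Psmb8 did pass without scaling, at -0.73 (adjusted p = 0.0262), where 44.6% of all genes were lower. It also passed with spike-in scaling, at -0.83 (adjusted p = 0.0190), where 5157 of all 17178 genes were lower. With 1 array left out its change ranged from -0.59 without the first GKA array to -0.10 without the second. The Psmb8 and Psmb9 genes are neighbours in the MHC region, and the Psmb8 probe is at chr17:34337771-34337830 of mm9 on the plus strand.

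These calls rest on 2 arrays per group. Without the second GKA array the change of Psmb9 was -0.84 and no longer passed (adjusted p = 0.0690), while it passed when any other array was left out. Psmb10 kept a change of -0.92 to -0.54 when any 1 array was left out, and passed in none of these fits (adjusted p 0.0598 to 0.138). In bulk RNA, fewer cells of a type and less RNA per cell cannot be told apart. Leukocyte markers moved with these genes: 7 of the 18 measured markers fell, against 8.01% of all genes, none of the 18 rose, against 9.11% of all genes, and the median change of the list was -0.61, and between -0.66 and -1.09 under the other scalings. Itgam, Cd68 and Cd3e went the other way without passing, at 0.41, 0.39 and 0.36. The summed signal of the list relative to the percentile ranged from 17.2 to 19.5 on the GKA arrays and from 23.2 to 24.8 on the vehicle arrays. Ptprc, which encodes the pan-leukocyte marker CD45, was dim but well above background, at -4.42 and -4.44 with GKA and at -3.93 and -4.01 with vehicle, and of the 19 markers on the array the B-cell gene Cd79a alone did not pass the filter. The part of leukocytes in the fall of Psmb9 and Psmb10 was not tested.

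The promoters of the 3 proteasome genes that fell are shown because interferon-induced members of this family are known to be switched on through their start regions. The windows run from 250 bases before to 50 bases after the transcription start in RefSeq's annotation of GRCm38.p6. They cover chr17:34187281-34187580 on the minus strand for Psmb9, chr8:105938343-105938642 on the minus strand for Psmb10, and chr14:55578244-55578543 on the plus strand for Psme1. Capitals mark matches, on either strand, to the antioxidant-response core TGACNNNGC, the interferon-stimulated element core GAAANNGAA, or the CCAAT box.
Psmb9: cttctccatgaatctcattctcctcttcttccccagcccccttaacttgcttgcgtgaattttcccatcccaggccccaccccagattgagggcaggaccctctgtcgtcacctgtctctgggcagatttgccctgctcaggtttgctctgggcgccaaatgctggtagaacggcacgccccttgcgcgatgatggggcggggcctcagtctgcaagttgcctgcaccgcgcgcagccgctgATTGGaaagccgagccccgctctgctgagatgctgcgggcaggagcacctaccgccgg
Psmb10: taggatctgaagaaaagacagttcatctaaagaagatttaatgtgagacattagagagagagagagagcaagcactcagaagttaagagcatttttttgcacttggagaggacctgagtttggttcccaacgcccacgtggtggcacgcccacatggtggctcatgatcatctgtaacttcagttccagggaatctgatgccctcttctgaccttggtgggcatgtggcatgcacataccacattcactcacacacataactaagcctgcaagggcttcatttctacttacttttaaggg
Psme1: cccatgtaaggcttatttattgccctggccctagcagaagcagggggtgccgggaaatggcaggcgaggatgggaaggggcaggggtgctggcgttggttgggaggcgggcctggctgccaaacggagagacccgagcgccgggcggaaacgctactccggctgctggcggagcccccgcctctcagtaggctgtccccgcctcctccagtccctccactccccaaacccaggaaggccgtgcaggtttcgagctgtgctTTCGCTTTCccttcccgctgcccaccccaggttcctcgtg

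In these windows Psmb9 had 1 CCAAT box on the other strand, beginning 8 bases before the start site, Psmb10 had no match to the 3 motifs, and Psme1 had 1 interferon-stimulated core on the other strand, beginning 10 bases after the start site. The windows of Psmb8 and Psmd1 held no match, and that of Psmd12 held 1 antioxidant-response core. RefSeq windows were matched for 41 of the 49 members, 44 windows in all. The interferon-stimulated core was present in 7 of the 44, or 15.9%, against 8.56% of all 32851 promoter windows, the antioxidant-response core in 6, or 13.6%, against 12.4%, and the CCAAT box in 15, or 34.1%, against 37.4%. The 7 genes with the interferon-stimulated core were Psmb3, Psmb4, Psmc2, Psmd4, Psmd9, Psme1 and Psmg4, and of these Psme1 passed the test. A match is a description of the letters and shows no binding.

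Set against the constitutive subunit each one replaces, each inducible subunit had a lower ratio in islets with GKA. Because both signals of a pair come from the same array, a constant scaling of each array leaves these ratios as they are. Each is given as the log2 ratio on an array minus its mean over the vehicle arrays. Psmb9 over Psmb6 was -1.08 and -1.10 on the GKA arrays and -0.07 and 0.07 on the vehicle arrays, so that the mean ratio with GKA was 47.1% of that with vehicle. Psmb10 over Psmb7 was -0.74 and -0.86 with GKA and -0.08 and 0.08 with vehicle, or 57.4% of the vehicle ratio. Psmb8 over Psmb5 was -0.47 and -0.78 with GKA and -0.21 and 0.21 with vehicle, or 64.9%. In all 3 pairs both GKA arrays lay below both vehicle arrays. The exact permutation test gave a two-sided p of 0.333 for each pair, and 0.333 after adjustment over the 3 pairs, which is the smallest that 4 arrays allow.

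**Figure D2:**
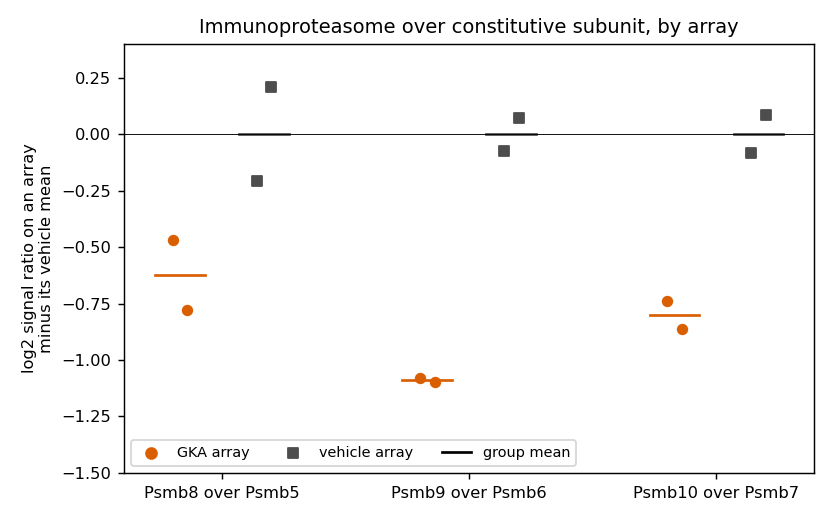
For each pair of an inducible and a constitutive beta subunit, the log2 signal ratio on each array is plotted after subtracting its vehicle mean (orange circles, GKA arrays; grey squares, vehicle arrays; bars, group means). The GKA means lie at -0.62 for Psmb8 over Psmb5, -1.09 for Psmb9 over Psmb6 and -0.80 for Psmb10 over Psmb7, and no pair overlaps between the groups.

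The constitutive 20S core was slightly brighter with GKA in the 75th-percentile scaling. None of its 14 tested genes passed in limma, against 17.1% of all genes. An unadjusted p under 0.05 was found for 4 of the 14, beside 36.1% of all genes. For the 7 tested genes of the alpha ring, which forms the gate of the barrel, the median log2 change was 0.19, and it was -0.19 without scaling and -0.29 with spike-in scaling. Psma2 had signals of 5.80 and 5.70 with GKA, against 5.36 and 5.50 with vehicle, a log2 change of 0.32 ± 0.12 (adjusted p = 0.131). Psma3 averaged 5.03 ± 0.04 with GKA, against 4.91 ± 0.02 with vehicle (SD, n = 2 each), a change of 0.12 ± 0.11 (adjusted p = 0.489 in limma). In 6 of the 7 alpha genes both GKA arrays lay above both vehicle arrays, as in 32.4% of all genes, and Psma6, at 0.03, overlapped. The widest change in the ring was that of Psma1, 0.38 ± 0.11 (adjusted p = 0.0726), named after its values were seen.

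In the constitutive beta ring the median change was 0.28, again turning to -0.11 without scaling and to -0.20 with spike-in scaling. None of the 3 catalytic subunits that the inducible ones replace passed, and Psmb6 and Psmb7 stayed within their errors. Psmb5, the chymotrypsin-like subunit, had 6.78 and 6.61 on the GKA arrays, against 6.49 and 6.35 on the vehicle arrays, with no overlap, and its change was 0.28 ± 0.13 (adjusted p = 0.188). Psmb6, the caspase-like subunit, had 5.78 and 5.51 with GKA, against 5.61 and 5.49 with vehicle, a change of 0.10 ± 0.14 with overlapping groups (adjusted p = 0.656). Psmb7, the trypsin-like subunit, had 2.76 and 2.51 with GKA, against 2.61 and 2.53 with vehicle, a change of 0.07 ± 0.14, also with overlap (adjusted p = 0.748). The remaining beta genes carry no cutting site. Among them Psmb4 had 6.05 and 5.76 with GKA, against 5.67 and 5.59 with vehicle, a change of 0.28 ± 0.14 (adjusted p = 0.229). Psmb3, named after its values were seen, had a change of 0.49 ± 0.13 and came near the threshold (adjusted p = 0.0552), and Psmb1 and Psmb2 changed by 0.17 and 0.29 without passing.

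The 19S regulatory particle held both proteasome genes that rose. Psmd1, the large scaffold of its base on which a ubiquitin receptor docks, had log2 signals of 4.01 and 3.94 on the GKA arrays, against 3.47 and 3.43 on the vehicle arrays. The pairs of arrays were separated by several times their own spread. The log2 change was 0.52 ± 0.11 (SE), 1.43 times the vehicle signal (interval 0.24 to 0.81, adjusted p = 0.0375), and the probe lies at chr1:88035777-88035836 of mm9 on the plus strand. Psmd12, a subunit of the lid, had 4.20 and 4.15 with GKA, against 3.67 and 3.66 with vehicle. Its change was 0.51 ± 0.11, 1.42 times the vehicle signal (interval 0.23 to 0.78, adjusted p = 0.0383). The probe used is at chr11:107358963-107359022 of mm9 on the plus strand, and a second Psmd12 probe changed by 0.37. Neither gene passed when any 1 array was left out (adjusted p 0.0856 to 0.148 for Psmd1 and 0.0832 to 0.147 for Psmd12). Without scaling between arrays their changes were 0.14 and 0.12, and with spike-in scaling 0.04 and 0.02, and neither passed there, so their rise is relative to the bulk of the array signal.

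All 11 non-ATPase subunits of the regulatory particle had both GKA arrays above both vehicle arrays, against 32.4% of all genes. Their median change was 0.32, from 0.19 for Psmd11 to 0.52 for Psmd1, but the median was -0.06 without scaling and -0.16 with spike-in scaling. The set takes in Psmd4, a ubiquitin receptor, at 0.20 ± 0.14 (adjusted p = 0.355), and Psmd14, the enzyme that cuts ubiquitin off the substrate, at 0.25 ± 0.12 (adjusted p = 0.200), both named after their values were seen. Of the 6 ATPases, which form the unfolding ring, 4 lay above the vehicle arrays and 2 overlapped. Psmc1 had 5.66 and 5.51 with GKA, against 5.25 and 5.15 with vehicle, a change of 0.39 ± 0.12 (adjusted p = 0.0865). Psmc3 had 5.62 and 5.58 with GKA, against 5.46 and 5.32 with vehicle, a change of 0.21 ± 0.12 (adjusted p = 0.250). Psmc4 changed by 0.45 ± 0.12 (adjusted p = 0.0568), whereas Psmc2 and Psmc5 stood at -0.02 and -0.12 and were the only constitutive subunits measured with a negative change in this scaling. The 2 probes of Psmc2 differed in sign, at -0.02 and 0.08. The median of the ATPases was 0.23, against -0.15 without scaling and -0.25 with spike-in scaling.

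**Figure D3:**
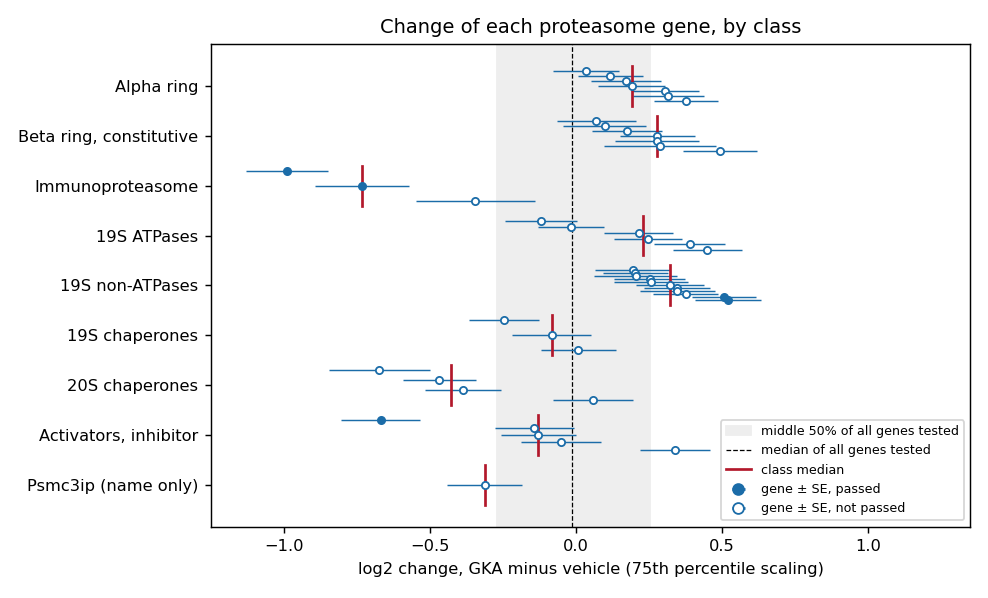
Log2 change (GKA minus vehicle, 75th-percentile scaling) of each tested proteasome gene with its standard error, by class; filled circles passed at an adjusted p under 0.05, open circles did not, and the red bar is the class median. The grey band holds the middle 50% of all genes tested, from -0.27 to 0.25, around their median of -0.01. Immunoproteasome and 20S chaperone medians lie left of the band, at -0.73 and -0.43, and the non-ATPase and beta-ring medians lie at 0.32 and 0.28, although those of the alpha, beta and 19S subunit classes turn negative without scaling and with spike-in scaling.

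The chaperones that build the core had mostly negative changes. Psmg1 and Psmg2 form the heterodimer on which the alpha ring is put together. Psmg1 had 3.39 and 3.32 on the GKA arrays, against 3.92 and 3.73 on the vehicle arrays, a log2 change of -0.47 ± 0.13 that did not pass (adjusted p = 0.0604). Psmg2 had 2.15 and 2.03 with GKA, against 2.97 and 2.55 with vehicle, a change of -0.67 ± 0.17 (adjusted p = 0.0548). Both groups of arrays were apart for each of these genes, and the vehicle arrays differed more between themselves than the GKA arrays did. Without the second vehicle array the change of Psmg2 was -0.89. Both genes passed in limma under median scaling, without scaling (adjusted p = 0.00834 for Psmg1 and 0.00958 for Psmg2) and with spike-in scaling (0.00684 and 0.000827). They also passed with normexp background correction, with an intensity trend, and when all 4 arrays had to be well above background. Neither passed with averaged probes, with the replicate number as a block, or without the filter on dim probes. Psmg4 was at -0.39 ± 0.13 (adjusted p = 0.0986) and its partner Psmg3 at 0.06 ± 0.14, with overlap. The median of these 4 chaperones was -0.43, with 3 of the 4 at an unadjusted p under 0.05, beside 36.1% of all genes, and none of the 4 past the adjusted threshold in limma.

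Chaperones of the regulatory particle, Psmd5, Psmd9 and Psmd10, bind its ATPases during assembly. Psmd5 had 0.95 and 0.76 with GKA, against 0.78 and 0.91 with vehicle, a change of 0.01 ± 0.13. Psmd9 had 0.47 and 0.32 with GKA, against 0.67 and 0.61 with vehicle, a change of -0.25 ± 0.12 (adjusted p = 0.204). Psmd10, also known as gankyrin, changed by -0.08, and its second probe by 0.14, so its direction is not settled. None of these 3 genes passed in limma, and 0 had an unadjusted p under 0.05.

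Among the alternative caps of the core, the subunits of the interferon-inducible PA28 activator behaved unequally. Psme1, its alpha subunit, had 3.43 and 3.20 on the GKA arrays, against 3.92 and 4.05 on the vehicle arrays. It fell to 0.629 times the vehicle signal, with a log2 change of -0.67 ± 0.14 (interval -1.01 to -0.33, adjusted p = 0.0331). Its probe, at chr14:56200194-56200253 of mm9 on the plus strand, was printed 10 times on each array, and the spots had coefficients of variation of 3.43% and 4.30% on the GKA arrays, against 5.38% and 3.28% on the vehicle arrays. The mean spot intensities were 6007 and 5515 with GKA, against 11374 and 12563 with vehicle, so spot-to-spot error was small beside the difference. With any 1 array left out the change stayed between -0.78 and -0.56, without passing (adjusted p 0.0546 to 0.138). The leukocyte markers given above moved with Psme1 as well, and their part in its fall was not tested.

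Psme2, the beta subunit of the same heptamer, had 5.67 and 5.51 with GKA, against 5.64 and 5.83 with vehicle. The groups overlapped, and the change was -0.14 ± 0.14 (adjusted p = 0.487, interval -0.48 to 0.20). Psme2 did pass in limma without scaling, at -0.53 (adjusted p = 0.0240), where 44.6% of all genes were lower. It did not pass with spike-in scaling, at -0.63 (adjusted p = 0.0772). A second Psme2 probe well above background on all 4 arrays changed by -0.22. Psme3, the nuclear activator PA28 gamma, had 0.88 and 0.70 with GKA, against 0.87 and 0.97 with vehicle, a change of -0.13 ± 0.13 (adjusted p = 0.511). Psme4, the PA200 activator, had 0.06 and 0.14 with GKA, against -0.16 and -0.31 with vehicle, a change of 0.34 ± 0.12 (adjusted p = 0.111). It was the one gene outside the constitutive particle whose GKA arrays both lay above the vehicle arrays. Psmf1, the inhibitor PI31, had 0.74 and 0.54 with GKA, against 0.78 and 0.60 with vehicle, a change of -0.05 ± 0.14 (adjusted p = 0.819). Psmc3ip, the gene matched by name, was at -2.85 and -3.01 with GKA and at -2.55 and -2.69 with vehicle, a change of -0.31 ± 0.13 (adjusted p = 0.147).

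The 31 tested subunits of the constitutive 26S particle and the other 16 tested members, Psmc3ip among them, differed in median change. Their ranges overlapped in the 75th-percentile scaling, from -0.12 to 0.52 and from -0.99 to 0.34. With 75th-percentile scaling 29 of the 31 changes were positive, with a median of 0.26, 26 of the 31 had both GKA arrays on top, against 32.4% of all genes, and none of the 31 had both below, against 33.5% of all genes. Among the other 16 members, 13 changes were negative, the median was -0.28, 8 had both GKA arrays below and 1 had both above. This difference between the groups of members was not tested. The sign of the 26S changes depended on the scaling: without scaling, 26 of the 31 were negative with a median of -0.13, beside -0.40 for all genes, and with spike-in scaling 28 were negative with a median of -0.22, beside -0.49 for all genes. The unscaled signals gave 0 proteasome genes higher, against 4.37% of all genes, and 17 lower, against 44.6% of all genes (limma), and 14 of those 17 were among the members outside the constitutive particle. In every scaling the 26S median stood above the median of all genes, and Psmb9, Psmb10 and Psme1 were lower at an adjusted p under 0.05. Psmg1 and Psmg2 were lower at that threshold in each scaling but the 75th percentile. In the authors' deposited table, whose group values are not scaled, the ratio of GKA to control was 0.387 for Psmb9, 0.463 for Psmb10 and 1.10 for Psmd1.

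**Figure D4:**
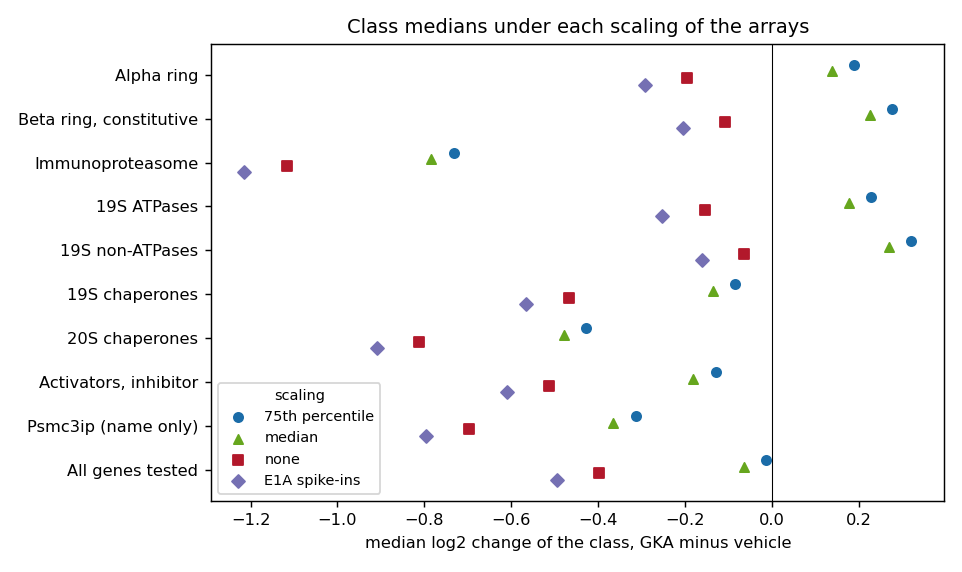
Median log2 change (GKA minus vehicle) of each class of proteasome genes and of all genes tested under 4 scalings of the arrays: 75th percentile, median, none, and E1A spike-in spots. All-gene medians were -0.01, -0.06, -0.40 and -0.49. Medians of the alpha, beta and 19S subunit classes are positive under the first pair of scalings and negative under the other pair, and the immunoproteasome median is negative under all 4.

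Per array, the median deviation of the 3 immunoproteasome genes from their means over the 4 arrays was -0.18 and -0.55 with GKA and 0.32 and 0.41 with vehicle. The second GKA array was thus the lower of the GKA pair.

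Genes that work with the proteasome gave a mixed picture. Of 30 listed ubiquitin and proteasome-associated genes, all tested, 3 rose, against 9.11% of all genes. The median change of the list was 0.14, and it turned to -0.24 without scaling and to -0.34 with spike-in scaling. With spike-in scaling 0 of the 30 were higher, against 421 of all 17178 genes. Uba1, the main enzyme that activates ubiquitin, had 5.18 and 5.10 with GKA, against 4.56 and 4.63 with vehicle, a log2 change of 0.55 ± 0.12 (adjusted p = 0.0352). Nploc4, a cofactor of the segregase Vcp, changed by 0.53 ± 0.11 (adjusted p = 0.0351), and Uchl5, a deubiquitinase of the 19S particle, by 0.52 ± 0.13 (adjusted p = 0.0486). Pomp, the chaperone that matures the core, was at 0.23 (adjusted p = 0.208). Nfe2l1, the transcription factor known to raise proteasome genes when the proteasome is impaired, was at -0.39 ± 0.11 and did not pass (adjusted p = 0.0745).

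In the MHC class I pathway, which uses the peptides the immunoproteasome makes, 0 of 10 genes passed, against 17.1% of all genes. The median change was -0.08, and 2 of the 10 had an unadjusted p under 0.05 in limma, beside 36.1% of all genes. Without scaling 4 of the 10, Erap1, Nlrc5, Tap2 and Tapbp, were lower, against 44.6% of all genes. The median was then -0.47, beside -0.40 for all genes. With spike-in scaling 2, Erap1 and Nlrc5, were lower, against 5157 of all 17178 genes. The median was then -0.56, beside -0.49 for all genes. The peptide transporter genes Tap1 and Tap2, neighbours of Psmb8 and Psmb9, changed by -0.06 ± 0.19 and -0.17 ± 0.11. The class I heavy chain genes H2-K1 and H2-D1 changed by 0.12 (adjusted p = 0.628) and 0.00 (adjusted p = 0.993). B2m, the light chain of class I molecules, was at -0.10, and Nlrc5, the transactivator of the pathway, at -0.74 (adjusted p = 0.0785). Of 21 tested interferon-induced genes, 1 fell, against 8.01% of all genes, 20 did not pass, and the median was -0.38. Without scaling 5 of the 21 were lower, against 44.6% of all genes, with a median of -0.76, beside -0.40. With spike-in scaling 12 were lower, against 5157 of all 17178 genes, with a median of -0.86, beside -0.49. The gene that fell was the chemokine Cxcl10, with 0.55 and 0.02 on the GKA arrays, against 1.75 and 3.28 on the vehicle arrays, a change of -2.23 ± 0.51 (adjusted p = 0.0419). Irf1, a transcription factor that acts on immunoproteasome genes, was at -0.86 with a wide error (adjusted p = 0.181).

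Markers of the other cells of an islet preparation are given as the setting of these values. Of the 9 endocrine markers 2 rose, Sst and Pdx1, against 9.11% of all genes. The median change of the list was 0.27, against -0.11 without scaling, where both genes still passed, and -0.21 with spike-in scaling, where neither did. Of the 18 leukocyte markers 7 fell, against 8.01% of all genes. These were Lyz2, Lyz1, Aif1, Itgax, C1qa, Emr1 and Ptprc, with changes of -2.14 to -0.46, and Csf1r was at 0.08 without passing. The acinar list had 4 tested genes of 7 and 0 calls in limma, with 1 at an unadjusted p under 0.05, beside 36.1% of all genes. Its summed signals were 0.492 and 0.507 on the GKA arrays, against 0.593 and 0.595 on the vehicle arrays. Duct and endothelial markers each had 1 gene higher and 1 lower in the 75th-percentile scaling, of 5 and 7 tested. Of the fibroblast and stellate markers 1 of 7, Col1a2, fell. Over all genes 9.11% were higher and 8.01% lower in this scaling. The part of cell composition in the changes of the proteasome genes was not tested.

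**Figure D5:**
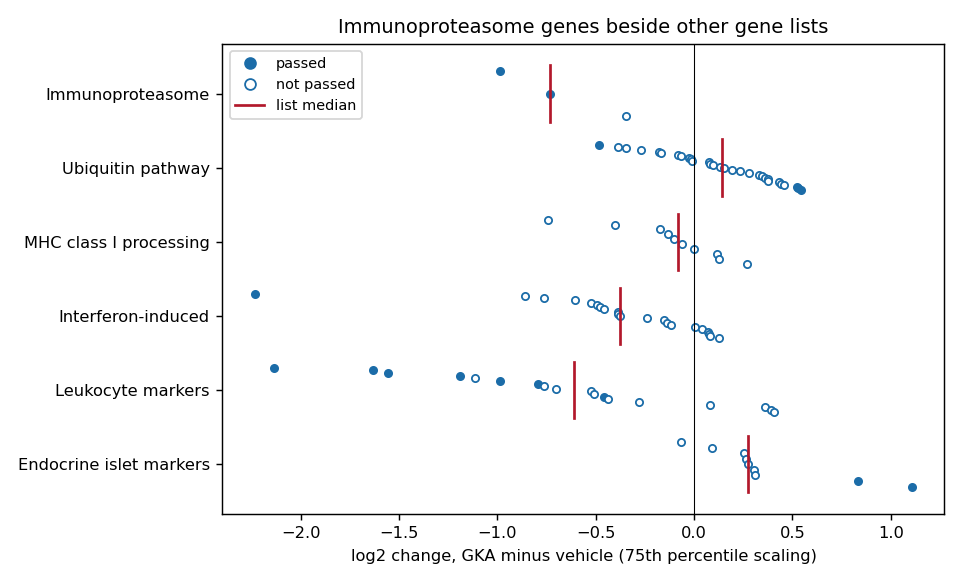
Log2 change (GKA minus vehicle, 75th-percentile scaling) of each tested gene of the immunoproteasome and of 5 other gene lists; filled circles passed at an adjusted p under 0.05 and red bars are list medians. The immunoproteasome median of -0.73 and the leukocyte median of -0.61 lie left of the interferon-induced median of -0.38, the MHC class I median lies at -0.08, and the endocrine and ubiquitin medians lie at 0.27 and 0.14, both of which turn negative without scaling and with spike-in scaling.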

How the data were processed

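Fluorescence intensity per spot (background-subtracted, linear scale) was made by the authors with Agilent Feature Extraction, version 10.7.3.1 per the file headers and 9.1 per the submitters' processing notes, with no scaling between arrays. A table for the series, also deposited by the authors, holds 1 intensity per group and probe and the ratio of GKA over control, and was used for gene names, probe positions on build mm9 and as an alternative.

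Processed intensities were taken to log2, the spots of a probe were then averaged, and each array's 75th percentile was subtracted. Control spots and spots marked as outliers were left out, and no proteasome spot was so marked. Named probes were kept where either group had both of its arrays well above background, which gave 22139 of the 39429 non-control probes. Each gene was represented by its brightest probe. The number of arrays limits the precision.

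GKA and vehicle were compared with limma 3.58.1 (lmFit and eBayes, R 4.3.3), as a two-sided test. The p-values were adjusted by Benjamini and Hochberg's method over all 17178 genes, with a threshold of 0.05. The fit had 2 residual and 3.33 prior degrees of freedom. It was tested on simulated data. Subunit ratios were compared with an exact permutation test. Alternatives covered scaling, background correction, the filter, the choice of probe, an intensity trend, the replicate number as a block, and leaving out each array.

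The genes described array by array were the inducible subunits with their counterparts, the activators and inhibitor, each member that passed and, in a class where none did, the 2 members with the highest mean signal. In the other lists, up to 5 passing genes per direction were named, or the 2 with the highest signal. Further genes were named after their values were seen. The members, classes and gene lists were chosen with earlier results of these data known. All 49 members matched a RefSeq gene of GRCm38.p6 by Entrez identifier under an unchanged symbol. Promoter sequences are from RefSeq. Some genes of the other lists are not reported here.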

Additional observations from a re-analysis of the deposited data

How the results depend on the processing

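The fall of Psmb9, Psmb10 and Psme1 and the positive changes of Psmd1 and Psmd12 kept their direction under all alternatives run, while most constitutive subunits did not keep theirs under 2 scalings: without scaling 26 of the 31 were negative and with spike-in scaling 28. Without scaling, the changes of Psmb5, Psmb6 and Psmb7 were -0.11, -0.29 and -0.32, of Psme4 -0.046, Psma2 -0.069, Psma3 -0.27, Psmb4 -0.11, Psmc3 -0.17 and Psmd5 -0.38. The median of all members was then -0.19, with -0.19 for the alpha ring, -0.11 for the beta ring, -0.15 for the ATPases and -0.063 for the non-ATPases, 0 members were higher and 17 lower, and of all genes 750 were higher and 7654 lower, a shift of the all-gene median by -0.38. With spike-in scaling Psmb5, Psmb6 and Psmb7 were at -0.20, -0.38 and -0.41, Psme4 at -0.14, Psma2 -0.17, Psma3 -0.36, Psmb4 -0.20, Psmc3 -0.27, Psmc1 -0.093 and Psmd5 -0.47. The member median was -0.29, with -0.29, -0.20, -0.25 and -0.16 for the same 4 classes, 0 members were higher and 9 lower, and 421 and 5157 of all genes, a shift of -0.48. In the authors' deposited table Psmb5, Psmb6 and Psmb7 stood at -0.11, -0.29 and -0.31, Psme4 at -0.045, Psma2 -0.071, Psma3 -0.27, Psmb4 -0.10, Psmc3 -0.17 and Psmd5 -0.38. Under median scaling 2 members were higher and 5 lower, against 1381 and 1848 of all genes, and Psmd5 was at -0.044.

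Normexp on the median signal was chosen after seeing the data because the files hold no mean signal. The planned fit on mean signals was not run. With the percentile, normexp gave 6 members higher and 6 lower, against 2990 and 2055 of all genes. The member median was then 0.12 and Psmd5 was at -0.0051. With quantile scaling 9 members were higher and 6 lower, against 1956 and 2067 of all genes. An intensity trend gave 8 higher and 6 lower, against 2085 and 2094 of all genes. Requiring all 4 arrays above background gave 4 higher and 5 lower, against 1719 and 1570 of all genes. Averaging the probes of a gene left 1 higher and 3 lower, against 1585 and 1402 of all genes. It turned the median of the 19S chaperones to 0.0077. Without the filter 0 members passed in either direction, and 156 and 67 genes did.

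The replicate 1 minus replicate 2 differences of the GKA and vehicle groups correlated with r = 0.08 over all genes and r = -0.18 over members. With 1 such difference per group, this cannot tell whether samples of the same number shared a preparation. With the replicate number as a block 0 members were higher and 1, Psmb9, was lower, and 1014 and 902 of all genes.

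With each array left out in turn, 0 members were higher (0 in every fit) and 0 to 2 lower, against 315 to 1523 genes higher and 206 to 1312 lower. The member median ranged from 0.10 to 0.23, the change of Psmb6 from -0.038 to 0.23, Psmb7 from -0.057 to 0.20, Psmd5 from -0.084 to 0.10, Psmf1 from -0.15 to 0.051, and the 19S chaperone median from -0.20 to 0.031. The ratio of Psmb8 to Psmb5 ranged from -0.83 to -0.41, Psmb9 to Psmb6 from -1.16 to -1.01, and Psmb10 to Psmb7 from -0.89 to -0.72. In these fits the lone array of a group was assumed to vary like the other group. The causes of these differences were not tested.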
